A study of Mus musculus with 10 samples.

Results

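The genes described here are 35 genes of glycolysis and of the response to low oxygen, measured in aortic smooth muscle cells of mouse embryos. They were chosen by symbol, not by a measured value, from 28165 genes with an estimated count per library. All 35 were found, and all 35 passed the filter on low counts that left 15718 genes for testing. They fall into 20 enzymes and transporters of glycolysis and 15 targets of the hypoxia-inducible factors.

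The study asked which genes change in these cells when elastin is missing. Eln encodes tropoelastin, the protein from which elastic fibres of the arterial wall are built. Mice that were Eln+/- and carried the Acta2-GFP reporter were intercrossed, and aortas were taken at embryonic day 15.5. Cells that were GFP+, CD31- and DAPI- (reporter positive, without CD31, the product of the endothelial gene Pecam1, and alive) were sorted and received no treatment. Each genotype, Eln+/+ and Eln-/-, has 5 libraries, and every embryo used carried the reporter. The reporter marks any cell that uses the Acta2 promoter, so the gate does not define smooth muscle on its own. The labels name neither the Eln allele nor how many embryos were pooled, and they do not call the replicates separate embryos. The p-values therefore reflect only how these libraries vary, and some of that variation may be technical.

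Glycolysis splits glucose into pyruvate, and lactate dehydrogenase then turns pyruvate into lactate, which restores the NAD that the pathway needs. When oxygen is plentiful, prolyl hydroxylases of the Egln family mark the alpha subunits of hypoxia-inducible factors for destruction through the Vhl ubiquitin ligase. When oxygen is low, the alpha subunits persist, pair with Arnt and bind DNA at the core sequence ACGTG or GCGTG, and many genes of glycolysis are among their targets.

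Promoters of 6 of the genes are printed because they carry that core in different numbers and belong to genes whose levels are followed below. Each is the 250 bases before the RefSeq transcription start in GRCm38.p6, the assembly also called mm10, read 5′ to 3′ on the gene's strand, with every match to ACGTG or GCGTG on either strand in capitals. The palindrome CACGTG matches on both strands and so counts as 2 matches, and overlapping matches are counted separately. Ldha has 5 matches (chr7:46845554-46845803, plus strand), Ankrd37 has 4 (chr8:45999851-46000100, minus strand), and Pgk1 (chrX:106186850-106187099, plus strand), Higd1a (chr9:121857797-121858046, minus strand) and Hk2 (chr6:82774455-82774704, minus strand) have 2 each. Hk1 (chr10:62379909-62380158, minus strand) has 0 and is shown beside its paralogue Hk2.
Ldha: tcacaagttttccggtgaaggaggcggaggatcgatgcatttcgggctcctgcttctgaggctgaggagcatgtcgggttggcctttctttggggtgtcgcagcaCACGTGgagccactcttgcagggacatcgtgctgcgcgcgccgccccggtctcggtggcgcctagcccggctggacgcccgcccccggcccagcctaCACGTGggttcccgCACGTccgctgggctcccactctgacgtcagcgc
Pgk1: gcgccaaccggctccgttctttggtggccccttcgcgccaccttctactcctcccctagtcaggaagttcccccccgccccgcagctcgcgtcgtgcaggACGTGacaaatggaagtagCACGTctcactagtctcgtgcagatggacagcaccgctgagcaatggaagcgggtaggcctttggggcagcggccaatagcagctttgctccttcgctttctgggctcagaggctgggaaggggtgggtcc
Higd1a: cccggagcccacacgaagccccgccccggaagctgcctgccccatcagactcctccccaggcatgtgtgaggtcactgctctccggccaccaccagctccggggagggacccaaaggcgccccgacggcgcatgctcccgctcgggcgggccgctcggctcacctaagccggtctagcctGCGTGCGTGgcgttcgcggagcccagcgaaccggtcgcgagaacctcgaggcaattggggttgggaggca
Ankrd37: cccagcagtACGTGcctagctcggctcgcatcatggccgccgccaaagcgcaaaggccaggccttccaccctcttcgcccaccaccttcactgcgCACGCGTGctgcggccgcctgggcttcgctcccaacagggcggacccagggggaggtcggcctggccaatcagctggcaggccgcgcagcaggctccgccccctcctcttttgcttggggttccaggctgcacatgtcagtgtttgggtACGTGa
Hk2: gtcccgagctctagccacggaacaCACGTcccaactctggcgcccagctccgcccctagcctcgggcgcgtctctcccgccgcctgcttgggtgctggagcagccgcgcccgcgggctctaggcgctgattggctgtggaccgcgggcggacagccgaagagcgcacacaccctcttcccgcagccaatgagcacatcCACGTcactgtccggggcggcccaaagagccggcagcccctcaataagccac
Hk1: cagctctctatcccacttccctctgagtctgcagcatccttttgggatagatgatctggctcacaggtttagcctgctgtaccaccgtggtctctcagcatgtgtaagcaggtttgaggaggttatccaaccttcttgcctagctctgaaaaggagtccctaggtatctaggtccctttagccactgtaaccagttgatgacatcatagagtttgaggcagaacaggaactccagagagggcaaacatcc

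Across the list, 26 of 33 promoters (78.8%) held at least 1 match, with a median of 2. Among all genes of the counts table with a promoter of the same length, 7475 of 14550 (51.4%) held one, with a median of 1. These letters are a description of the windows and not evidence of binding. Bhlhe40 and Ndrg1 had no promoter sequence. For each gene only the RefSeq start nearest the upstream end of the gene in the counts table was used. Other starts, such as any inside Hk1, are not shown, and which start these cells use is not known. The RefSeq start used for Ldha lies 4329 bases, and that for Ankrd37 5858 bases, from that end.

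The libraries differed from each other in ways that the genotype does not account for. A library held between 26951681 and 63866346 counts. The 3 libraries Eln+/+ replicate 1, Eln-/- replicate 4 and Eln-/- replicate 5 had 15089, 15595 and 15925 genes with a count, where the other 7 had 18157 to 22951. Their total counts of 26951681, 28367714 and 31366586 were also the 3 lowest. These libraries are called the 3 sparse libraries here. Results are given with all 10 and with the 7 left (4 Eln+/+ and 3 Eln-/-), a choice made after the data were seen. Eln, which checks the labels, had 2409, 105866, 8603, 49878 and 31530 counts in wild type, while the Eln-/- replicates had 36, 1, 0, 1 and 0. Its fitted log2 fold change was -12.19 (SE 1.64, n = 5 per genotype), and its adjusted p was 0.152 (edgeR), 1.26e-20 (DESeq2) and 0.00781 (limma-voom, weighted by sample quality). Acta2, which marks smooth muscle and whose promoter drives the sorted reporter, lay between 473 and 1742 CPM (counts scaled for library size). The summed level of 12 smooth muscle genes lay between 1163 and 4661 CPM. Among them Tagln ran from 129 to 1452 CPM and Myl9 from 82.9 to 970 CPM. Myh11 ran from 0.0377 to 119 CPM, Smtn from 0 to 187 CPM and Myocd from 0 to 93.1 CPM. The sum therefore does not show smooth muscle identity in every library. Summed CPM of 12 endothelial genes was 15.3 to 99.1 in Eln+/+ and 44.0 to 94.5 in Eln-/- libraries, with Pecam1 at 0 to 7.70, Tek at up to 37.8 and Egfl7 at up to 52.4 CPM. Summed CPM of 12 leukocyte genes was 1.20 to 26.4 and 0.0754 to 10.8, and that of 12 striated muscle genes 5.62 to 940 and 31.7 to 883, with the atrial Myl7 at up to 475 CPM. Summed CPM of 12 fibroblast genes ran from 1639 to 12518 in Eln+/+ and from 960 to 21094 in Eln-/- libraries. It was 1639, 960 and 1313 CPM in the 3 sparse libraries, in the order above, and 3673 to 21094 CPM in the other 7. The fibroblast sum exceeded the smooth muscle sum in those 7 and lay below it in the 3 sparse libraries.

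None of the 35 genes differed between genotypes at an adjusted p under 0.05 in edgeR's quasi-likelihood test. In that test 0 of the 15718 genes were called, a background of 0%. At an unadjusted p under 0.05 there were 0 of the 35 against 81 of all genes (0.515%). With no true difference, evenly spread p-values would put a share of 0.05 there. The p-values are thus large as a set, and 0 of the 35 carries little information. In 0 of the 35 did the libraries of the 2 genotypes not overlap, against 48 of all genes (0.305%). DESeq2 called 6 genes (0.0392%), and limma-voom weighted by sample quality called 7 (0.0445%), and 0 of the 35 were among them. The smallest adjusted p among the 35 was 0.9997 with edgeR. The median log2 fold change, Eln-/- over Eln+/+, was -0.06 over the 35 genes, with 14 above and 21 below zero and a range from -0.53 to 1.59. Over all genes tested it was 0.02, with 51.5% above zero.

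Without the 3 sparse libraries, 17509 genes were tested and again 0 were called (0%), with 271 at an unadjusted p under 0.05 (1.55%) and 662 whose genotypes did not overlap (3.78%). Of the 35 genes, 0 fell in each of these sets, which carries little information at such small shares. The median of the 35 was then 0.16, with 23 above and 12 below zero, beside 0.04 and 52.8% above zero over all genes. The median half-width of the 95% interval of a log2 fold change was 1.68 over the 20 glycolysis genes with all 10 libraries and 0.863 with 7. With 10 libraries the interval of 0 of the 35 genes lay inside a 2-fold difference either way. With 7 libraries this held for 12: the glucose transporter Slc2a1, the enzymes Gpi1, Aldoa, Tpi1, Gapdh, Pgk1, Pgam1, Eno1 and Pkm, and the hypoxia targets P4ha1, P4ha2 and Higd1a. For the other 23 genes a 2-fold difference was not excluded by the interval, so the missing calls do not show equal levels.

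**Figure D1:**
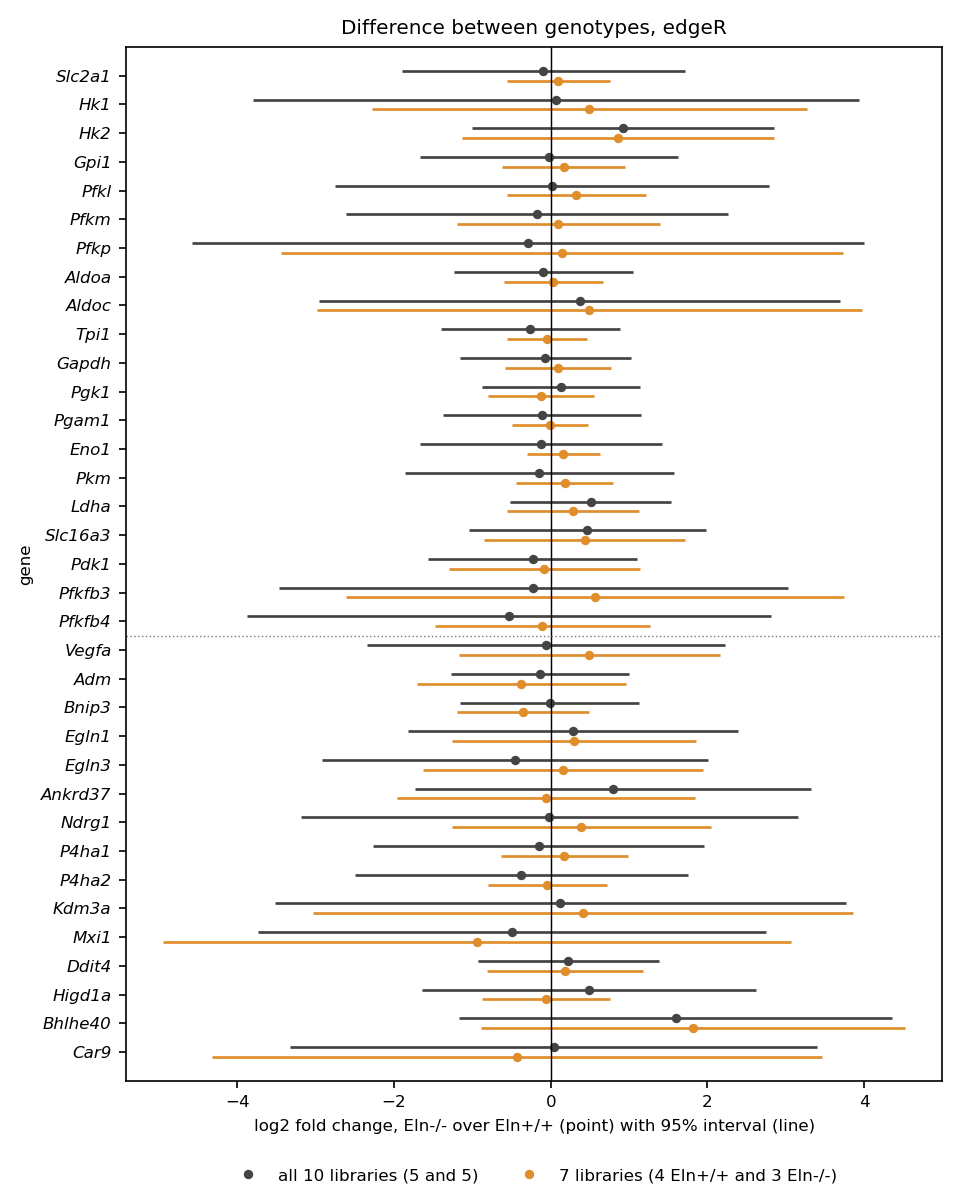
Log2 fold change of each of the 35 genes (x axis, Eln-/- over Eln+/+; y axis, gene), with a point for the edgeR estimate and a line for its 95% interval, for all 10 libraries and for the 7 without the 3 sparse ones. Every interval crosses zero in both fits, and that of Tpi1 shortens from between -1.40 and 0.88 to between -0.55 and 0.47 when the 3 sparse libraries are left out.

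In the 3 sparse libraries, 13 of the 35 genes lay below all 7 other libraries, against 3379 of the 15718 genes tested (21.5%). They were Slc2a1, Hk1, Gpi1, Pfkl, Tpi1, Gapdh, Pgam1, Eno1, Pkm and Pfkfb4 of glycolysis, and Ndrg1, P4ha1 and P4ha2 of the hypoxia targets. Higd1a alone lay above all 7 others in all 3, against 2510 of all genes (16%). Since the cells were sequenced in bulk, fewer cells that express a gene and less of its RNA per cell cannot be told apart. The 3 sparse libraries also had the lowest total counts and the lowest sums of fibroblast genes. The part of technical variation or of the mix of cells in their low values was not tested. The map of levels by gene and library shows these columns as mostly blue, with Higd1a red in all 3. Ankrd37 and Vegfa are red in Eln+/+ replicate 1 and Eln-/- replicate 4 and below their median in Eln-/- replicate 5.

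**Figure D2:**
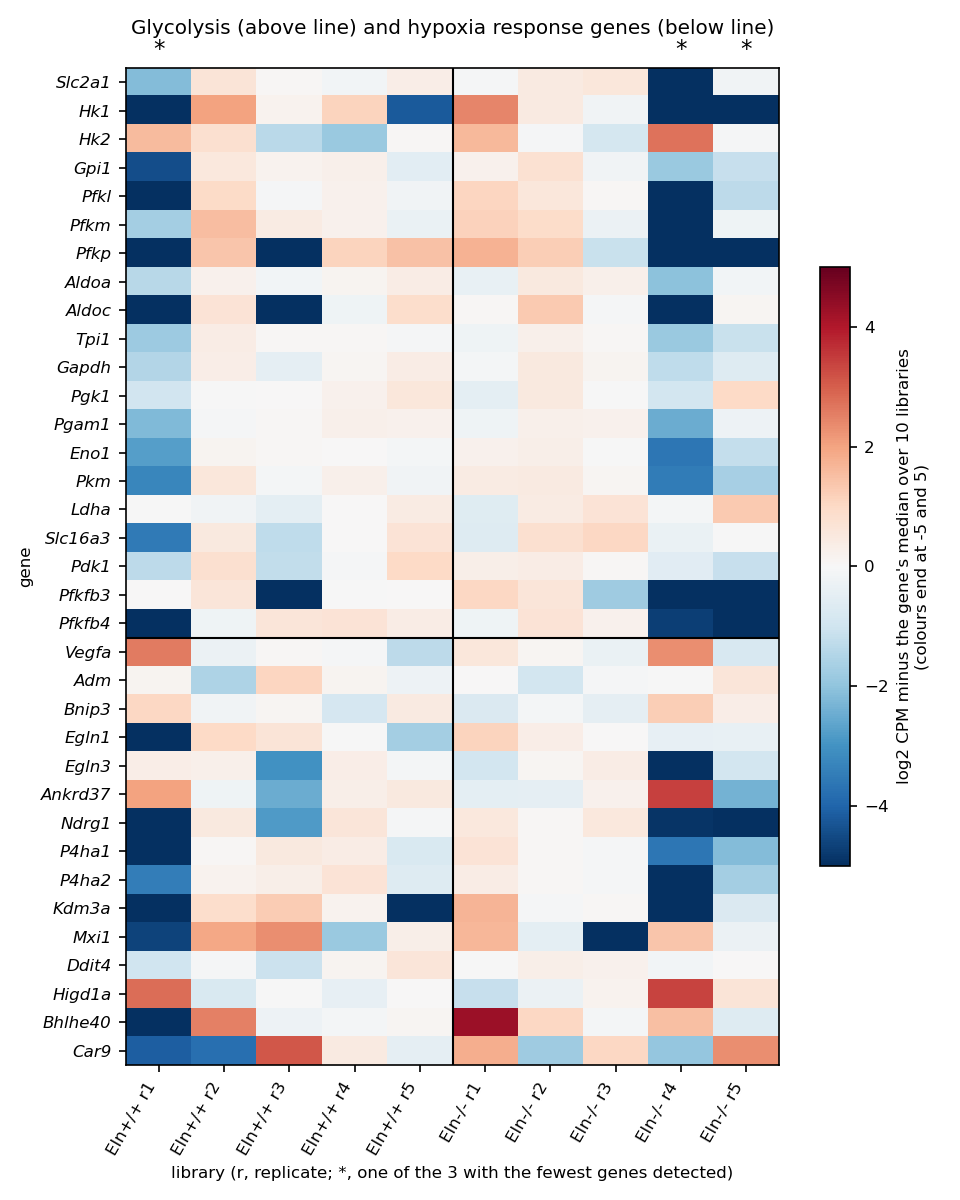
Level of each gene (rows; glycolysis above the line, hypoxia targets below) in each library (columns; Eln+/+ left, Eln-/- right), as log2 CPM minus the gene's median over 10 libraries, red above and blue below. The starred columns are the 3 sparse libraries, where 13 of the 35 genes lie below every other library.

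The level of a gene in a library also moved with the length of its transcripts. Across 15337 genes, Spearman's rho between median transcript length and a gene's deviation from its own median was -0.43, 0.59, 0.02, 0.31 and -0.22 in the 5 Eln+/+ replicates, taken in order, and 0.64, 0.29, -0.23, -0.36 and -0.51 in the 5 of Eln-/-. Across the 35 genes it was -0.57, 0.59, 0.02, 0.26 and -0.20, then 0.49, 0.31, -0.07, -0.56 and -0.36. These correlations are across genes of 1 library, which are not independent replicates, and are given as a description. In the 3 sparse libraries the long transcripts of Hk1 (median 3745 bases), Pfkl (3730 bases) and Kdm3a (4816 bases) were low, and the short transcripts of Higd1a (1346.5 bases) and Ankrd37 (927 bases) were high in Eln+/+ replicate 1 and Eln-/- replicate 4. Other genes went against this order. Hk2, with a median of 4152.5 bases, was high in those 2 libraries, while the short transcripts of Tpi1 (1204.5 bases) and Gapdh (1273 bases) lay below the other 7 in all 3 sparse libraries, and Aldoa (1511 bases) was lowest in those 2. The part of transcript length in the differences between libraries was not tested.

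**Figure D3:**
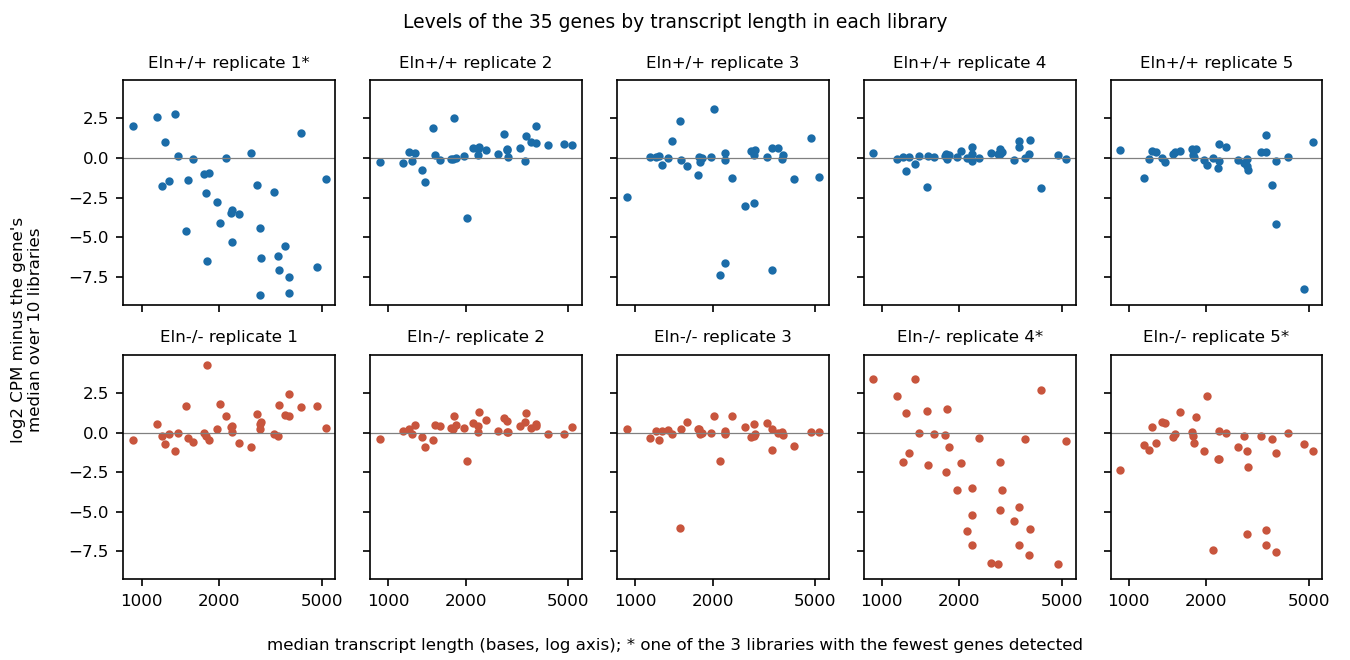
Deviation of the 35 genes from their median level (y axis, log2 CPM) against median transcript length (x axis, bases, log scale), with 1 panel per library and 1 point per gene. The points slope upward in Eln+/+ replicate 2 (rho 0.59) and downward in Eln+/+ replicate 1 (rho -0.57).

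Glucose enters the cell through Slc2a1 and is trapped by hexokinases. Slc2a1 stood at 9.13, 63.1, 43.0, 37.4 and 52.0 CPM in the 5 Eln+/+ libraries, and at 38.7, 55.4, 61.0, 0.799 and 35.7 CPM in the 5 of Eln-/-, in the order of their replicate numbers, which holds for all lists of 5 values here. The genotypes overlapped, with low values in Eln+/+ replicate 1 and Eln-/- replicate 4, and the log2 fold change was -0.09 (SE 0.82) with 10 libraries and 0.10 (SE 0.28) with 7.

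Hk1, the hexokinase found in most tissues, was at 0, 31.5, 8.71, 16.6 and 0.379 CPM in Eln+/+ and at 42.5, 10.4, 6.78, 0.0726 and 0 CPM in Eln-/- libraries. A library with 0 counts allows a level of up to 3 counts, which is 0.198 CPM in Eln+/+ replicate 1 and 0.113 CPM in Eln-/- replicate 5. Hk2, the inducible hexokinase, was at 27.2, 15.6, 3.51, 2.42 and 9.25 CPM in Eln+/+ and at 27.8, 8.63, 4.92, 59.5 and 8.74 CPM in Eln-/- libraries. Both genes spread widely inside each genotype, and 1 library carries most of the Eln-/- mean of Hk2. The log2 fold change of Hk1 was 0.06 (SE 1.77) and that of Hk2 was 0.92 (SE 0.88, 95% interval -1.01 to 2.85).

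Per kilobase of transcript, Hk2 exceeded Hk1 in 4 of 10 libraries, namely Eln+/+ replicates 1 and 5 and Eln-/- replicates 4 and 5, where Hk1 had 0, 17, 1 and 0 counts. In the other 6 libraries Hk1 was the higher of the pair. The log2 ratio of Hk2 to Hk1 was -1.01, -1.30, -2.76 and 4.47 in the 4 Eln+/+ libraries that were not sparse. It was -0.61, -0.27 and -0.46 in the 3 such libraries of Eln-/-, within the same range. In the 3 sparse libraries, where Hk1 had 0 or 1 counts, the ratio is set by the prior count and has no interpretable size. The exons of Hk1 overlap the antisense gene Hk1os, whose reads cannot be separated from those of Hk1 because it is not known whether the counting used strand.

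Phosphofructokinase commits the sugar to glycolysis, and its subunits are Pfkl (liver type), Pfkm (muscle type) and Pfkp (platelet type). Pfkl was at 0.0661, 77.8, 38.4, 46.6 and 35.3 CPM in Eln+/+ and at 83.3, 59.0, 41.5, 0.145 and 16.2 CPM in Eln-/- libraries. In the 7 libraries it kept between 35.3 and 83.3 CPM, while Pfkm ran from 10.5 to 38.6 CPM and Pfkp from 0 to 18.5 CPM. Per kilobase, Pfkl was the most abundant of the 3 subunits in each of those 7.

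In Eln+/+ replicate 1 Pfkl had 1 count, Pfkm 61 and Pfkp 0, and in Eln-/- replicate 4 they had 2, 0 and 0. Pfkp had 0 counts in Eln+/+ replicate 3 as well, a library that is not sparse, and in Eln-/- replicate 5. The log2 fold changes were 0.01 (SE 1.27) for Pfkl, -0.18 (SE 1.11) for Pfkm and -0.29 (SE 1.96) for Pfkp. The exons of Pfkp overlap those of Pitrm1 on the other strand by 748 bases, so part of its counts may belong to that gene.

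Pfkfb3 and Pfkfb4 make fructose 2,6-bisphosphate, the activator of phosphofructokinase. Pfkfb3 was at 13.8, 20.9, 0.0406, 13.5 and 13.9 CPM in Eln+/+ and at 28.2, 20.7, 3.94, 0.145 and 0.0377 CPM in Eln-/- libraries. It was nearly absent from 3 libraries, of which Eln+/+ replicate 3 is not a sparse one. Pfkfb4 ran from 0 to 4.72 CPM in Eln+/+ and from 0 to 4.71 CPM in Eln-/- libraries, and per kilobase its mean level was 0.771 CPM against 5.40 CPM for Pfkfb3. The log2 fold changes were -0.22 (SE 1.48) for Pfkfb3 and -0.53 (SE 1.53) for Pfkfb4, the lowest of the 35.

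Several enzymes between glucose 6-phosphate and pyruvate kept within narrow bounds across the 7 libraries. The highest of the 7 was under 2 times the lowest for 8 of the 35 genes, namely Slc2a1, Aldoa, Tpi1, Gapdh, Pgam1, Eno1, Pkm and Pfkfb4, against 2042 of the 15718 genes tested (13%). The aldolase Aldoa ran from 326 to 582 CPM and the triosephosphate isomerase Tpi1 from 200.1 to 297 CPM. The mutase Pgam1 ran from 212 to 297 CPM, the enolase Eno1 from 344 to 459 CPM and the pyruvate kinase Pkm from 395 to 661 CPM. The highest of the 7 libraries was 1.33 times the lowest for Eno1, 1.40 times for Pgam1 and 1.48 times for Tpi1, the 3 smallest such ratios among the 35 genes. It was 2.40 for Gpi1, which isomerises glucose 6-phosphate and ran from 39.9 to 95.5 CPM, and 2.36 for Pfkl.

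Tpi1 shows the contrast between the sets of libraries. It stood at 66.8, 297, 244, 243 and 223 CPM in Eln+/+ and at 200.1, 278, 244, 64.8 and 107 CPM in Eln-/- libraries, with the 3 low values in the 3 sparse libraries. Its log2 fold change was -0.26 (95% interval -1.40 to 0.88) with 10 libraries and -0.04 (-0.55 to 0.47) with 7. Eno1 was at 55.0, 407, 388, 380 and 344 CPM in Eln+/+ and at 431, 459, 363, 30.2 and 164 CPM in Eln-/- libraries. Its log2 fold change was -0.12 (95% interval -1.67 to 1.42) with 10 libraries and 0.16 (-0.31 to 0.63) with 7.

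Pkm was at 46.2, 661, 411, 529 and 395 CPM in Eln+/+ and at 592, 599.9, 479, 39.1 and 139 CPM in Eln-/- libraries, with the same 3 libraries low. Its log2 fold change was -0.14 (SE 0.78) with 10 libraries and 0.18 (SE 0.27) with 7. The M1 and M2 splice forms of Pkm cannot be separated in counts per gene. Gpi1, Aldoa and Pgam1 had log2 fold changes of -0.03 (SE 0.75), -0.09 (SE 0.52) and -0.12 (SE 0.58), and Aldoc, the aldolase typical of brain, stayed at or below 10.4 CPM with a log2 fold change of 0.37 (SE 1.52).

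Ldha, which makes lactate, was not low in the sparse libraries. It stood at 589, 542, 433, 619.8 and 804 CPM in Eln+/+ and at 402, 798, 966, 572 and 1514 CPM in Eln-/- libraries. The highest value was that of Eln-/- replicate 5, the lowest that of Eln-/- replicate 1, and the genotypes overlapped. The log2 fold change of Ldha was 0.51 (SE 0.47, 95% interval -0.52 to 1.54) with 10 libraries and 0.28 (SE 0.36) with 7.

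As counted, Ldha had the highest mean level per kilobase of the 35 genes, 456 CPM per kilobase, followed by Aldoa with 259. Higd1a came next with 178, which rests on Eln+/+ replicate 1 and Eln-/- replicate 4, since without these it was 65.8. Over the 7 libraries the order was Ldha with 411, Aldoa with 309, Pkm with 234, Tpi1 with 205 and Eno1 with 202 CPM per kilobase. These levels leave out counts on the pseudogene copies described below. With the copies added, means over all libraries were 484 for Ldha, 266 for Eno1, 263 for Aldoa and 243 for Gapdh. The Ldha share of the counts of the 20 glycolysis genes, also without copies, was 53.9%, 16.9%, 17.9%, 21.2% and 26.5% in Eln+/+ libraries. In Eln-/- libraries it was 15.2%, 22.4%, 29.8%, 55.7% and 53.3%. The 95% Wilson interval of each share reached at most 0.820 percentage points from its value, and it covers counting error only. The share was at least 53.3% in the 3 sparse libraries and at most 29.8% in the other 7, of both genotypes. Summed over the 20 genes, CPM was 2536 ± 858 in Eln+/+ and 2663 ± 981 in Eln-/- libraries.

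Lactate leaves the cell through Slc16a3. It was at 3.17, 51.4, 15.2, 37.6 and 58.6 CPM in Eln+/+ and at 23.5, 64.8, 75.5, 29.3 and 36.2 CPM in Eln-/- libraries, and these overlapped, with a log2 fold change of 0.47 (SE 0.69). Pdk1, which keeps pyruvate out of the citrate cycle by inhibiting pyruvate dehydrogenase, lay between 8.40 and 42.0 CPM in Eln+/+ and between 9.54 and 27.5 CPM in Eln-/- libraries. Its log2 fold change was -0.23 (SE 0.61).

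The choice between isoenzymes was compared in 11 pairs as log2 ratios of CPM within a library. These depend on how libraries are scaled only through the prior count, which matters where counts are low. None of the 11 differed between genotypes when all assignments of the 10 libraries to genotypes were enumerated (exact permutation test, two-sided, smallest possible p 0.00794), and adjusted p-values ran from 0.895 to 0.976. In 8 of the 11 pairs a gene had 3 counts or fewer in at least 1 library, where the ratio depends on the prior count, so their tests carry little information. The other 3 pairs were Ldhb to Ldha, Slc2a3 to Slc2a1 and P4ha2 to P4ha1. The latter pairs differed by -0.07 and -1.29 (exact permutation p 0.976 and 0.230). Without the 3 sparse libraries they differed by -1.61 and -0.18 (exact permutation p 0.6 and 0.286). Their counts were low in places. Slc2a3 had 4, 7 and 8 counts in Eln+/+ replicate 1 and Eln-/- replicates 3 and 5. In Eln-/- replicate 4 Slc2a1 had 11 and P4ha2 had 13. The ratio of Ldhb, the lactate dehydrogenase subunit typical of heart, to Ldha was -2.04 ± 0.76 in Eln+/+ and -2.69 ± 0.52 in Eln-/- libraries (mean ± SD, n = 5). It differed by -0.65 (exact permutation p 0.167), and by -0.61 without the 3 sparse libraries (exact permutation p 0.286, where the smallest possible is 0.0286).

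Ldhb stood at 72.8, 161, 219.6, 117 and 191 CPM in Eln+/+ and at 102, 159, 127, 72.0 and 162 CPM in Eln-/- libraries. Per kilobase, Aldoa exceeded Aldoc, Eno1 exceeded Eno2 and Ldha exceeded Ldhb in 10 of 10 libraries. Pfkl exceeded Pfkp in the 8 libraries where either had more than 3 counts. P4ha2 exceeded P4ha1 in 9 of 10 libraries per kilobase, and the log2 ratios of their CPM lay between -0.36 and 0.25 in the 7 libraries.

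**Figure D4:**
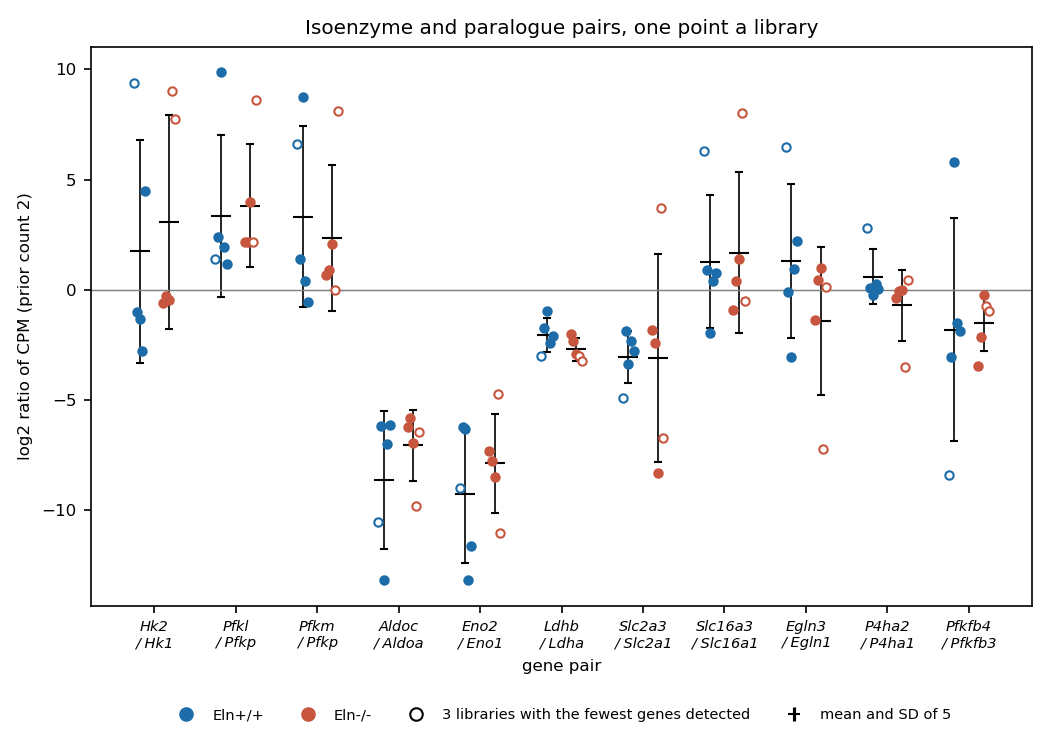
Log2 ratio of CPM within a library (y axis, prior count 2) for 11 pairs of isoenzymes or paralogues (x axis), with 1 point per library coloured by genotype, open points for the 3 sparse libraries, and bars for the mean and SD of 5. The Ldhb to Ldha points have the smallest SD of the 11 pairs (0.76 and 0.52) and overlap between genotypes, while the Hk2 to Hk1 points at 9.37 and 9.03 are libraries with 0 and 1 counts of Hk1, whose ratio is set by the prior count.

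Among the hypoxia targets, Egln1 and Egln3 are the prolyl hydroxylases that sense oxygen. Egln1 was at 0.132, 16.1, 12.6, 8.03 and 2.43 CPM in Eln+/+ and at 17.4, 10.0, 8.03, 6.10 and 6.14 CPM in Eln-/- libraries. Egln3 was at 15.5, 15.0, 1.502, 15.6 and 11.6 CPM in Eln+/+ and at 6.65, 13.5, 16.3, 0 and 6.63 CPM in Eln-/- libraries. The genotypes overlapped for both, and the low libraries were not the same ones: Egln1 was lowest in Eln+/+ replicate 1, where Egln3 was among its highest values. The log2 fold changes were 0.28 (SE 0.96) for Egln1 and -0.46 (SE 1.13) for Egln3.

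Higd1a and Bnip3 act at mitochondria, Higd1a on the respiratory chain and Bnip3 in the removal of mitochondria. Higd1a was at 671, 56.8, 95.7, 73.5 and 98.6 CPM in Eln+/+ and at 43.2, 79.2, 109, 1013 and 153 CPM in Eln-/- libraries. The high values were those of Eln+/+ replicate 1 and Eln-/- replicate 4, 1 of each genotype, and the other 8 lay between 43.2 and 153 CPM. Its log2 fold change was 0.49 (SE 0.97) with 10 libraries, -1.05 without Eln-/- replicate 4 and 1.81 without Eln+/+ replicate 1, and in the 7 libraries it was -0.05 (95% interval -0.87 to 0.76).

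Bnip3 was at 65.7, 28.4, 34.7, 18.2 and 44.4 CPM in Eln+/+ and at 19.3, 29.8, 23.5, 76.2 and 40.8 CPM in Eln-/- libraries, again highest in those 2 libraries. Ankrd37, a small ankyrin repeat protein, was at 15.0, 3.12, 0.629, 4.55 and 5.10 CPM in Eln+/+ and at 2.59, 2.70, 4.28, 39.1 and 0.678 CPM in Eln-/- libraries. Vegfa, the growth factor of vessels, was at 10.8, 1.41, 1.83, 1.68 and 0.691 CPM in Eln+/+ and at 2.59, 1.86, 1.36, 8.93 and 0.980 CPM in Eln-/- libraries. Higd1a, Bnip3, Ankrd37 and Vegfa were thus the 4 of the 35 genes whose CPM in Eln+/+ replicate 1 and Eln-/- replicate 4 lay above the other 8 libraries. This held for 2642 of the 15718 genes tested (16.8%). The CPM of 13 of the 35 in these 2 libraries lay below the other 8, against 3464 of all genes (22%). The TMM factors of these 2 libraries were the smallest. Scaled by total counts alone, Higd1a, Ankrd37 and Vegfa were still highest there, but Bnip3 was highest in Eln+/+ replicate 5.

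The log2 fold changes were -0.01 (SE 0.52) for Bnip3, 0.80 (SE 1.16) for Ankrd37 and -0.06 (SE 1.04) for Vegfa. That of Ankrd37 was -1.15 without Eln-/- replicate 4 and 1.58 without Eln+/+ replicate 1, and that of Vegfa was -0.95 and 1.18. The same 2 libraries had the highest summed CPM of 13 erythroid genes, 18912 and 5186, against 42.8 to 1383 in the other 8, and none of those genes was at 0 in every library. The part of red cell RNA in the levels of these 4 genes was not tested. The exons of Higd1a, Bnip3 and Ankrd37 overlap those of genes on the other strand (Gm47112, Gm45507, and Lrp2bp with Ufsp2), so their counts may include reads of those genes.

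Bhlhe40, a transcription repressor that also answers serum and stress, had the largest log2 fold change of the 35, 1.59 (SE 1.26, 95% interval -1.17 to 4.36). It was at 0.0661, 55.1, 8.04, 9.01 and 10.1 CPM in Eln+/+ and at 187, 19.8, 8.97, 27.3 and 6.14 CPM in Eln-/- libraries. The value of Eln-/- replicate 1 set the difference, since without it the log2 fold change was -0.10. Summed CPM of 24 immediate early and stress genes was highest in the same 2 libraries as Bhlhe40, with 27400 (Eln-/- replicate 1) and 10755 (Eln+/+ replicate 2), while the other 8 had 1145 to 4650. The part of that response in the level of Bhlhe40 was not tested.

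P4ha1 and P4ha2, the catalytic subunits of the prolyl hydroxylase that stabilises collagen, lay between 81.9 and 223 CPM and between 85.5 and 215 CPM in the 7 libraries. P4ha1 was at 1.72, 145, 195, 180.5 and 81.9 CPM in Eln+/+ and at 223, 145, 133, 11.3 and 31.0 CPM in Eln-/- libraries. P4ha2 was at 12.2, 152, 166, 215 and 85.5 CPM in Eln+/+ and at 173, 139, 132, 0.944 and 42.1 CPM in Eln-/- libraries. Both were low in the 3 sparse libraries and overlapped between genotypes in the rest. The log2 fold changes in the 7 libraries were 0.17 (95% interval -0.64 to 0.99) for P4ha1 and -0.04 (-0.80 to 0.71) for P4ha2.

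Adm, which encodes the vessel-relaxing peptide adrenomedullin, was at 39.7, 12.4, 75.9, 38.9 and 29.99 CPM in Eln+/+ and at 35.7, 18.9, 34.2, 35.7 and 54.7 CPM in Eln-/- libraries, with a log2 fold change of -0.14 (SE 0.52). Ddit4, an inhibitor of mTORC1, averaged 14.8 ± 7.06 CPM over the Eln+/+ libraries, and 17.3 ± 2.22 CPM over those of Eln-/- (mean ± SD, n = 5), with a log2 fold change of 0.22 (SE 0.53). Neither gene was low in all 3 libraries with the fewest genes.

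The remaining 4 hypoxia targets were low or patchy. Car9, the carbonic anhydrase often used as a hypoxia marker, was at 0, 0.0115, 6.13, 0.934 and 0.490 CPM in Eln+/+ and at 2.48, 0.168, 1.43, 0.145 and 3.54 CPM in Eln-/- libraries. Its level was within a few CPM of zero everywhere, so its log2 fold change of 0.04 (SE 1.54) carries little information. Ndrg1, Kdm3a (a histone demethylase) and Mxi1 (an antagonist of Myc) ran from 0 to 24.6, 0 to 41.6 and 0 to 13.2 CPM over the 10 libraries, and their log2 fold changes were -0.02 (SE 1.45), 0.12 (SE 1.66) and -0.49 (SE 1.48). Summed over the 15 hypoxia targets, CPM was 618 ± 155 in Eln+/+ and 690.4 ± 345 in Eln-/- libraries, and without Higd1a it was 419 ± 170.4 and 411 ± 219.

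Several glycolysis genes have processed pseudogenes that are nearly the same in sequence, and the counts were split between them. Of the 35 genes, 10 had at least 1 copy in the counts table (at least 90% identity over at least 300 bases of the gene's transcripts). For Gapdh, 161 copies, 22 of them at least 99% identical, held 88.0% of the counts of gene and copies together, and between 86.1% and 88.4% in single libraries. The share was 63.1% for Pgk1, 42.1% for Eno1, 26.1% for Pgam1, 14.3% for Pkm, 13.7% for Bnip3, 5.88% for Ldha, 3.17% for Tpi1 and 1.23% for Aldoa. Most of the Eno1 share lay on 1 copy, Gm4735, whose aligned bases were 99.6% identical.

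Pgk1 makes plain how steady the split was and where it was not. Its share on copies was between 62.1% and 64.4% in 9 libraries and 42.4% (95% Wilson interval 39.2% to 45.6%) in Eln-/- replicate 4, where Pkm was lowest too, at 7.86% against 13.8% to 15.0% elsewhere. The counted level of Pgk1 itself was 38.0, 72.4, 74.2, 84.8 and 107 CPM in Eln+/+ and 52.7, 104, 72.5, 38.3 and 145 CPM in Eln-/- libraries, with a log2 fold change of 0.13 (SE 0.46). With the copies added it was 0.07 (SE 0.51).

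Gapdh was counted at 38.3 ± 16.03 CPM over the Eln+/+ libraries, and 36.6 ± 15.5 CPM over those of Eln-/-, and with the copies added at 315 ± 144 and 303 ± 143 CPM (mean ± SD, n = 5). Its mean level over all libraries was 29.4 CPM per kilobase as counted and 243 CPM per kilobase with the copies. The log2 fold change of Gapdh was -0.07 (SE 0.50) without and -0.05 (SE 0.52) with the copies, so the comparison between genotypes moved little while the level moved a lot. Reads of gene and copy cannot be told apart here, and the level of Gapdh, Pgk1 or Eno1 depends on how the counting split them.

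**Figure D5:**
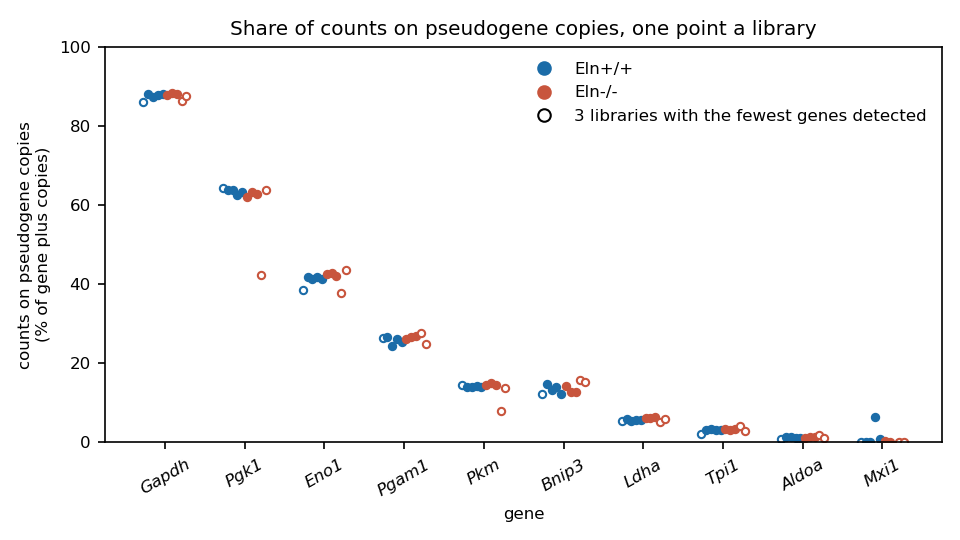
Counts on pseudogene copies as a percent of the counts on gene plus copies (y axis) for the 10 genes with copies in the table (x axis), with 1 point per library coloured by genotype and open points for the 3 sparse libraries. The points of a gene lie close together, near 88.0% for Gapdh, except Pgk1 and Pkm in Eln-/- replicate 4 and the thinly counted Mxi1.

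Other genes of the pathways were read from 3 lists, each chosen for its role. Of 27 further glycolysis and pyruvate genes 20 were tested, of 11 regulators of the hypoxia response 11, and of 32 further hypoxia targets 29, and 0 of each were called (background 0%). Their median log2 fold changes were -0.11, 0.11 and -0.12 with 10 libraries and -0.18, 0.04 and 0.0031 with 7, where 0 were called as well. Hif1a, the oxygen-regulated alpha subunit, was at 16.1, 157, 125, 126 and 53.5 CPM in Eln+/+ and at 173, 95.6, 81.2, 0.654 and 26.6 CPM in Eln-/- libraries. Vhl, which targets it for destruction, ran from 112 to 233 CPM in Eln+/+ and from 66.5 to 401 CPM in Eln-/- libraries. Hypoxia-inducible factors are regulated mainly as proteins, which these counts do not measure.

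Some of these genes were high in the same libraries as Higd1a, and others low. Fam162a, a mitochondrial hypoxia target with a median transcript of 679 bases, was at 588, 53.0, 103, 81.6 and 136 CPM in Eln+/+ and at 47.1, 106, 125, 865 and 298 CPM in Eln-/- libraries. Mpc1 and Mpc2, which carry pyruvate into mitochondria, were also highest in Eln+/+ replicate 1 and Eln-/- replicate 4, with 936 and 807 CPM for Mpc1 and 1555 and 1998 CPM for Mpc2. Mif, a cytokine gene of 544 bases, was at 756 CPM in Eln+/+ replicate 1, at 1003 CPM in Eln-/- replicate 4 and between 94.9 and 222 CPM in the other 8 libraries. Bnip3l, a paralogue of Bnip3 with a median transcript of 3248.5 bases, was lowest in Eln+/+ replicate 1 and Eln-/- replicate 4, at 47.5 and 51.7 CPM. Ldhb was lowest in the same 2 libraries, although its median transcript has only 1304 bases. The log2 fold change of Bnip3l was -0.47 (SE 0.41) with 10 libraries. With 7 it was -0.48 (95% interval -0.95 to -0.0038, edgeR unadjusted p 0.0486, adjusted p 0.9998), and Bnip3l and Rsbn1 were the 2 of 30 further hypoxia targets tested there whose genotypes did not overlap, both lower in Eln-/- (background 3.78%). Rsbn1 was named after its values were seen.

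The gene of smallest unadjusted p in each list did not reach the threshold. These were Slc2a4, the insulin-regulated glucose transporter, with a log2 fold change of 1.46 (SE 1.48), Ep300, a coactivator of hypoxia-inducible factors, with 0.76 (SE 0.84), and Wsb1, a ubiquitin ligase subunit, with 0.92 (SE 0.56). Wsb1 was at 224 CPM in Eln-/- replicate 1 and between 29.3 and 82.0 CPM in the other 9 libraries. Egln2, the third prolyl hydroxylase, had a log2 fold change of 0.11 (SE 0.52), and the partners Slc2a3, Slc16a1 and Eno2 had -0.17 (SE 1.24), 0.21 (SE 1.32) and -0.59 (SE 1.61).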

How the data were processed

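The authors deposited 1 table of estimated counts (expected counts) per gene and library without any scaling. Each column name was matched to the description of 1 sample. The submitters' processing notes name STAR, DESeq2 and mm10 without versions. The counting program, annotation and strand setting are not stated in the labels. Non-whole values made up 23.5% to 48.8% of a library (tolerance 1e-06), so the estimated counts were rounded first.

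Genes kept by filterByExpr were scaled with TMM factors and compared with edgeR's quasi-likelihood test (two-sided, genotype the only term), with Benjamini-Hochberg adjustment over all genes and a threshold of 0.05. The SE was derived from the F statistic. CPM used the TMM factors, and log2 CPM a prior count of 2. Ratios were compared by exact permutation over libraries and adjusted over 11 pairs. Total counts of 26951681 to 63866346 per library put the level of 3 counts at 0.0342 to 0.217 CPM. Intervals on shares cover counting error only.

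Lengths, exon overlaps and positions came from GENCODE mouse release 21 (GRCm38), which matched 27285 of 28165 genes. Levels per kilobase used the median transcript length. Pseudogene copies were found with blastn 2.17.0, and promoters were taken from RefSeq. Alternatives were other scalings, no filter, DESeq2, limma-voom with sample quality weights, a replicate block, each library left out, and, added after seeing the data, the 3 sparse libraries (fewest genes with a count) left out and copies added. The text names all members, Eln and, from 3 further lists, the 3 genes of highest mean CPM, the gene of smallest p and the partners in ratios. The members, lists and rules were chosen with earlier results of these data known. The edgeR fit alone was also run on simulated counts with known changes, drawn independently for each gene. That simulation held no shifts shared across genes, such as those of the sparse libraries or of transcript length. It did not cover the ratio tests. The software was DESeq2 1.42.0, limma 3.58.1 and edgeR 4.0.16, run in R 4.3.3.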

Additional observations from a re-analysis of the deposited data

Results flagged for a closer look

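In each genotype the highest and lowest of the 5 libraries were compared with the nearest other library, for 70 groups of the 35 genes and 22 groups of the ratios, and 19 single libraries stood apart from the other 4. The critical value is set so that chance flags about 1 in 20 groups of normally distributed values, which skewed CPM values need not follow. Several of these flags fall in the same libraries. No explanation was tested for them.

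Eln+/+ replicate 1 stood apart with 53.6 CPM of Pgam1 (others 238 to 297), 55.0 CPM of Eno1 (others 344 to 407), 10.8 CPM of Vegfa (others 0.691 to 1.83) and 671 CPM of Higd1a (others 56.8 to 98.6). Its log2 ratio of P4ha2 to P4ha1 was 2.80 (others -0.23 to 0.25). Eln-/- replicate 4 stood apart with 8.93 CPM of Vegfa (others 0.980 to 2.59), 39.1 CPM of Ankrd37 (others 0.678 to 4.28) and 1013 CPM of Higd1a (others 43.2 to 153). Its log2 ratios of Aldoc to Aldoa (-9.81, others -6.96 to -5.81), Slc16a3 to Slc16a1 (8.01, others -0.90 to 1.39) and P4ha2 to P4ha1 (-3.52, others -0.36 to 0.44) stood apart too. The ratio of P4ha2 to P4ha1 thus moved in opposite directions in these 2 sparse libraries.

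Eln-/- replicate 1 stood apart with 42.5 CPM of Hk1 (others 0 to 10.4) and 187 CPM of Bhlhe40 (others 6.14 to 27.3), and Eln+/+ replicate 2 with 55.1 CPM of Bhlhe40 (others 0.0661 to 10.1). Eln+/+ replicate 3 stood apart with 1.502 CPM of Egln3 (others 11.6 to 15.6), 6.13 CPM of Car9 (others 0 to 0.934) and a log2 ratio of Pfkl to Pfkp of 9.87 (others 1.19 to 2.42), where Pfkp had 0 counts. Eln-/- replicate 5 stood apart in the log2 ratios of Pfkl to Pfkp (8.62, others 2.16 to 4.00) and Pfkm to Pfkp (8.10, others 0 to 2.08), again with Pfkp at 0 counts. In Eln-/- replicate 4, which gives the 0 in that range, both Pfkm and Pfkp had 0 counts. Ratios in which a gene had 0 or 1 counts, here also Slc16a3 to Slc16a1 and Aldoc to Aldoa in Eln-/- replicate 4, are set by the prior count.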

How the results depend on the processing

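The call of 0 genes held with RLE factors, library totals, no filter, the replicate block, added pseudogene copies and without the 3 sparse libraries, while DESeq2 called 6, limma-voom with sample quality weights called 7, and leaving out 1 library gave 0 to 1 (1 without Eln-/- replicate 1). Over the 18 alternatives 0 of the 35 genes were called, and their median log2 fold change (-0.06) ran from -0.27 (without Eln+/+ replicate 1) to 0.16 (without the 3 sparse libraries). It was above zero in 5 of the 18, the others being limma-voom (0.14) and leaving out Eln+/+ replicate 2 (0.10), Eln-/- replicate 4 (0.15) or Eln-/- replicate 5 (0.065). The signs of single genes were not stable. Hk2, Ldha, Slc16a3, Pfkfb4, P4ha2 and Ddit4 kept their sign in all 18. The cause of the sign changes of the others was not tested.

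With limma-voom and sample quality weights, signs turned and the log2 fold changes were Slc2a1 0.23, Hk1 -0.21, Gpi1 0.25, Pfkm 0.13, Pfkp 0.39, Aldoa 0.14, Tpi1 0.0061, Gapdh 0.18 and Eno1 0.088. The same fit gave Pkm 0.046, Pdk1 0.13, Pfkfb3 0.56, Vegfa 0.29, Bnip3 0.17, Egln3 0.024, Ankrd37 -0.25 and Car9 -0.15. Outside the 35 genes that fit turned Mpc2 -0.081, Mpc1 -0.18, Eno2 4.25, Vhl -0.16, Egln2 -0.16 and Ep300 -0.059.

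Without the 3 sparse libraries, the log2 fold changes that turned were Slc2a1 0.098, Gpi1 0.17, Pfkm 0.098, Pfkp 0.14, Aldoa 0.030, Gapdh 0.092, Pgk1 -0.12, Eno1 0.16 and Pkm 0.18. The same 7 libraries gave Pfkfb3 0.56, Vegfa 0.49, Egln3 0.16, Ankrd37 -0.059, Ndrg1 0.39, P4ha1 0.17, Higd1a -0.055 and Car9 -0.43. Among the other pathway genes they turned Mpc2 -0.19, Mpc1 -0.27, Vhl -0.31, Hif1a 0.041 and Egln2 -0.026. Of the differences in log2 ratio they turned Hk2:Hk1 -0.30, Pfkl:Pfkp -1.08, Egln3:Egln1 0.0064 and Pfkfb4:Pfkfb3 -1.78.

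With the replicate number as a block (replicate block), the log2 fold changes that turned were Hk1 -1.95, Gpi1 0.023, Pfkl -0.46, Vegfa 0.16, Adm 0.016, Ankrd37 -0.0060, Eno2 0.82 and Vhl -0.014. That fit called 0 genes. Libraries of the same number did not all deviate together. Their correlations were -0.56, 0.51, 0.12, -0.38 and 0.09 for numbers 1 to 5, and only number 3 correlated best with its own. Libraries also differed in the number of genes detected, so these correlations cannot decide whether the numbers pair the samples. DESeq2 turned Pfkl -0.0029 and Car9 -0.043. RLE factors turned Pfkl -0.0028 and Car9 -0.043. Library totals turned Pfkfb3 0.0067, Car9 -0.097 and Egln2 -0.097. Added copies turned Bnip3 0.015.

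Leaving out 1 library at a time turned the sign of these log2 fold changes, given from lowest to highest: Slc2a1 -0.34 to 0.23, Hk1 -1.41 to 0.90, Gpi1 -0.39 to 0.21, Pfkl -0.44 to 0.41, Pfkm -0.56 to 0.36, Pfkp -1.09 to 0.048, Aldoa -0.30 to 0.16, Aldoc -0.17 to 0.84 and Gapdh -0.28 to 0.12. Further ranges were Pgk1 -0.17 to 0.33, Pgam1 -0.36 to 0.15, Eno1 -0.38 to 0.18, Pkm -0.43 to 0.15, Pdk1 -0.43 to 0.097, Pfkfb3 -0.99 to 0.098, Vegfa -0.95 to 1.18, Adm -0.37 to 0.25 and Bnip3 -0.43 to 0.29. The last ranges among the 35 genes were Egln1 -0.062 to 0.72, Ankrd37 -1.15 to 1.58, Ndrg1 -0.35 to 0.34, P4ha1 -0.60 to 0.14, Kdm3a -0.73 to 0.66, Mxi1 -1.01 to 0.14, Higd1a -1.05 to 1.81, Bhlhe40 -0.096 to 2.87 and Car9 -0.52 to 2.09. For the other pathway genes the ranges were Mpc2 -0.52 to 1.78, Mpc1 -0.49 to 1.13, Slc2a3 -0.47 to 0.43, Eno2 -0.98 to 0.15, Slc16a1 -0.094 to 0.62, Vhl -0.27 to 0.39, Egln2 -0.15 to 0.37, Mif -0.68 to 1.37 and Fam162a -0.40 to 1.66. For the differences in log2 ratio they were Hk2:Hk1 -0.15 to 3.24, Pfkl:Pfkp -0.74 to 2.09, Pfkm:Pfkp -2.41 to 0.39, Slc2a3:Slc2a1 -1.77 to 1.24, Slc16a3:Slc16a1 -1.18 to 1.65 and Pfkfb4:Pfkfb3 -1.34 to 2.21.

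Car9, Aldoc and Mxi1 had libraries at or near 0 counts, in shallow and in deep libraries. Pfkfb4 had 0 or 1 counts in the 3 sparse libraries, which also had the lowest total counts, and 158 to 309 counts elsewhere. The part of depth in these low counts was not tested. Even without the 3 sparse libraries the 95% interval of 23 of the 35 genes reached a 2-fold difference.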
